A study of Schizosaccharomyces pombe with 6 samples.

Results

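The genes described here are the fission yeast genes in 4 stretches of chromosome I that hold inp53, the divergent pair csn71 and ned1, isp3, and uba42. Members were all rows of the deposited table whose systematic names begin with SPAC9G1, SPAC1952, SPAC1F8 or SPAC2G11, prefixes that come from the genomic clones used to sequence the chromosome. They number 53 of the 7016 rows: 14 from SPAC9G1, 17 from SPAC1952, 8 from SPAC1F8 and 14 from SPAC2G11. The stretches were chosen because genes in them were higher with estradiol in these same libraries and lay beside letters like those read by the Zif268 zinc fingers. No p is therefore given for any member. The calls, intervals and standard errors from the limma fit over all rows describe these libraries, and for the genes that chose the stretches they restate the choice and support nothing. The question is whether the difference was limited to 1 or 2 genes per stretch or reached the genes around them.

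RNA was sequenced from asynchronous Schizosaccharomyces pombe cultures in log phase, grown in rich YES medium at 30 °C. The estradiol group had 3 libraries from cultures given 1 µM beta-estradiol in ethanol for 3 h. The control group had 3 libraries from cultures given the vehicle, and the series design calls the libraries biological triplicates. The labels name no strain, genotype, activator or reporter for either group. GFP, present in the table, was at 814, 775 and 553 FPKM in the estradiol libraries, against 131, 148 and 161 FPKM in the control libraries. FPKM values are fragments scaled by transcript length and by library total. Only FPKM was deposited, without counts, and the absolute depth is therefore unknown. The spacing of low values gave relative depths of 0.687 to 1.15 for the estradiol libraries and 0.894 to 1.3 for the control libraries, with control library 0 set to 1.

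Estradiol-switched systems in yeasts commonly use an artificial activator that joins the DNA-binding zinc fingers of mouse Zif268 (Egr1) to the hormone-binding domain of the oestrogen receptor and an activation domain. Estradiol lets this protein enter the nucleus, where it binds promoters built with Zif268 sites. The fingers read the letters GCGTGGGCG, and yeast genomes can hold such letters by themselves. Fission yeast genes are closely packed, often with convergent or divergent neighbours, so 1 stretch of DNA can lie upstream of a pair of genes.

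The letters beside the higher genes are shown because they place each match relative to a gene start. On the ASM294v3 reference from RefSeq, the exact letters GCGTGGGCG, searched on both strands, occurred 4 times, all on chromosome I, and versions with 1 mismatch occurred 300 times. In the windows that follow, written 5′ to 3′ on the strand named, the match is in capitals. Substitutions are counted from 1 at the 5′ end of GCGTGGGCG, with the consensus base first.
inp53, upstream, plus strand of chrI:1991108-1991137: ccaagacactGCGTGGGCTgacctattatg
csn71 and ned1, the whole gap between them, minus strand of chrI:4990984-4991127: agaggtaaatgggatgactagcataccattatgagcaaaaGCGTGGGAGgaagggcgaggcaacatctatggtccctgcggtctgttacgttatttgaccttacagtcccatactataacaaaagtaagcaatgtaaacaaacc
isp3, upstream, minus strand of chrI:95380-95528: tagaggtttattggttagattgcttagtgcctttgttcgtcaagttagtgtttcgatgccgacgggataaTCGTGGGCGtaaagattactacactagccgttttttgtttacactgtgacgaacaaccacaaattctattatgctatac
uba42, inside its coding exon, plus strand of chrI:826903-827051: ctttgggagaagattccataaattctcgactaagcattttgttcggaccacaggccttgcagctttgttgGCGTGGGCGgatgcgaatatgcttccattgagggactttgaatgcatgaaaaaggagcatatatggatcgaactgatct

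The inp53 letters carried G9T and lay 17 bases upstream of the annotated start of inp53, within the annotated span of sid1. The letters between csn71 and ned1 carried C8A and lay 45 bases from the start of ned1 and 100 bases from that of csn71. The isp3 letters carried G1T and lay 336 bases upstream of isp3, within an exon of the antisense non-coding RNA SPNCRNA.606. The uba42 match was exact. It lay in the coding exon of uba42, 1136 bases from that gene's start, and also in an exon of the antisense non-coding RNA SPNCRNA.689, 398 bases inside its annotated start. The 4 stretches held 3 more matches with 1 mismatch, in coding exons of inp53 (C8G), ure2 (G9A) and pdc101 (G5T).

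Promoter windows, from 250 bases before to 50 after each annotated start, held the letters with at most 1 mismatch for 49 of 6845 genes, or 0.716%. Among the 53 members they did so for 3, or 5.66%, namely inp53, csn71 and ned1, of which the last pair share 1 match. No promoter window held the exact letters, and 1 of the 6845 (0.0146%) held GCGNGGGCG, in which N is any base. Over the 1000 bases before each start, the figures for at most 1 mismatch were 142 of 6845 genes (2.07%) and 4 of 53 members (7.55%), isp3 being the addition. These shares carry no independent weight, because such letters entered the choice of the stretches. A match says only that the letters are there.

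Of the 53 members, 50 had a mean of at least 1 FPKM and entered the limma fit over all 6166 such rows. Of these, 6 were called higher with estradiol (inp53, trm61, csn71, ned1, isp3 and alx1), 1 was called lower (gcn5) and 43 were not called. Over all 6166 rows, 4.07% were called higher and 3.91% lower at an adjusted p under 0.05, 7.98% in all, but 4 of the 6 higher members are genes that chose the stretches. The other 3 members, ure2, rec24 and shu1, were too low to be fitted. All estradiol values lay above all control values in 13 of the 50 and below them in 6, and the groups overlapped in 31. The 13 include inp53, csn71, ned1 and isp3, which chose the stretches. Without the 5 genes that picked the stretches, 9 of 45 tested members lay above, 6 lay below and 30 overlapped. Over all 6166 rows, 17.1% lay above and 14% below. The median log2 change, on the log2(FPKM + 1) scale, was 0.05 over the 50 members and 0.02 over all 6166 rows.

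**Figure D1:**
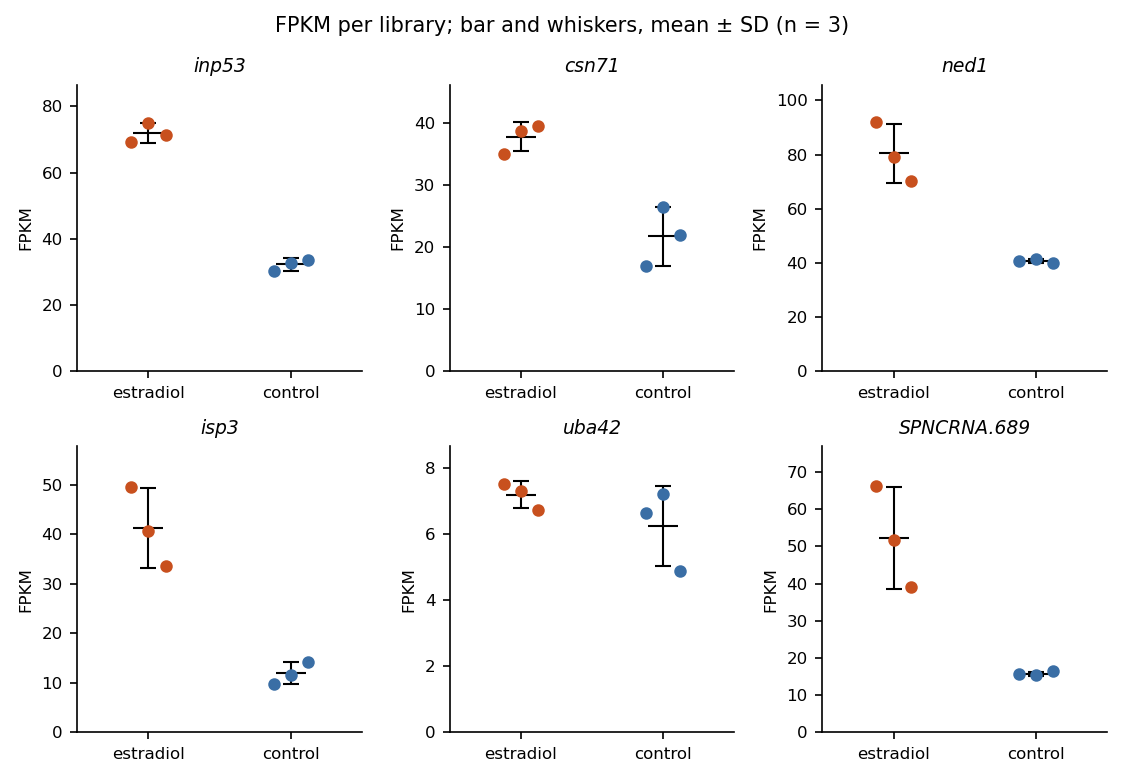
FPKM in each estradiol library (orange) and control library (blue) for the 5 genes that picked the stretches and for SPNCRNA.689, with the mean and SD of 3 libraries per group. The groups are apart in all panels but that of uba42, where the control value of 7.24 lies above the lowest estradiol value of 6.74.

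inp53 encodes an inositol polyphosphate phosphatase of the synaptojanin type, enzymes that remove phosphates from phosphoinositide lipids. It lies on the minus strand at chrI:1987258-1991105. It was at 69.3, 75.1 and 71.5 FPKM in the estradiol libraries, against 30.2, 32.8 and 33.7 FPKM in the control libraries. Every estradiol value was more than double any control value. The means were 72.0 ± 2.96 FPKM with estradiol and 32.2 ± 1.83 FPKM in controls (SD, n = 3 each), a ratio of 2.23. The limma log2 change was 1.14 ± 0.07 (SE), with a 95% interval of 0.97 to 1.30. With 1 library left out, the log2 change ran from 1.09 to 1.17.

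The gene on the other strand, sid1, encodes a kinase of the septation initiation network, and its annotated span covers the whole of inp53, all 3848 bases. sid1 was at 2.90, 2.95 and 2.89 FPKM with estradiol, against 2.82, 2.85 and 2.0 FPKM in controls. The estradiol values lay just above the controls, and the log2 change of 0.15 had a 95% interval of -0.31 to 0.61. The libraries do not mark strand, so reads from overlapping genes on opposite strands, here and below, cannot be told apart.

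On the other side of the letters lies spn4, a gene for a septin, one of the filament proteins of the division ring. It was at 47.5, 49.8 and 54.5 FPKM with estradiol, against 47.6, 48.0 and 51.3 FPKM in controls. The groups overlapped, and the log2 change was 0.04, with an interval of -0.13 to 0.22. The next gene, trm61, encodes a tRNA methyltransferase subunit and starts 2.54 kb from the letters, which are upstream of it. It was at 72.1, 70.5 and 70.8 FPKM with estradiol, against 56.9, 60.6 and 55.3 FPKM in controls. The groups did not overlap, at a ratio of 1.23 and a log2 change of 0.30 ± 0.06 (SE). Its call was lost when any 1 of the 6 libraries was left out. Its 3′ neighbour swc4, which overlaps it by 1067 bases, had a log2 change of 0.06.

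The rest of SPAC9G1 held no call. The nearest of these genes in name order, the phospholipase gene SPAC9G1.08c, was at 47.2, 47.0 and 47.5 FPKM with estradiol, against 55.1, 51.8 and 53.1 FPKM in controls. It was lower in all 3 estradiol libraries, at a log2 change of -0.17. Its log2 changes, without inp53, had a median of -0.05 over 13 genes. The lowest, -1.32, belonged to mzt1, whose protein works with the gamma-tubulin complex. mzt1 was at 1.95 FPKM in 1 estradiol library and at 44.5 FPKM in 1 control library, and below 0.01 FPKM in the other 4 libraries. Its SE of 1.48 was larger than its change. The ribosomal protein gene rpl3001, highest of the stretch, was at 829, 1013 and 767 FPKM with estradiol, against 1195, 1068 and 922 FPKM in controls. These values overlapped, and reads of rpl3001 may be shared with a near-identical copy of the gene elsewhere.

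csn71 and ned1 are transcribed away from each other across a gap of 144 bases that holds the letters. csn71, on the minus strand at chrI:4989725-4990983, encodes a subunit of the COP9 signalosome, which removes the ubiquitin-like modifier Nedd8 from cullin ligases. csn71 was at 35.1, 38.8 and 39.5 FPKM with estradiol, against 17.0, 26.4 and 21.9 FPKM in controls. All estradiol values were above the highest control, and the controls were the more spread. The means were 37.8 ± 2.35 FPKM with estradiol and 21.8 ± 4.73 FPKM in controls (SD, n = 3 each), a ratio of 1.74. limma gave a log2 change of 0.79 ± 0.15 (SE), with an interval of 0.43 to 1.15. The call was lost without control library 0, control library 2, estradiol library 1 or estradiol library 2, and with quantile normalization, which gave 0.74.

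ned1, on the plus strand at chrI:4991128-4993629, encodes lipin, a phosphatidate phosphatase of lipid synthesis. It was at 92.0, 79.0 and 70.4 FPKM with estradiol, against 40.8, 41.4 and 40.0 FPKM in controls. The lowest estradiol value was far above the narrow control range. The means were 80.5 ± 10.9 FPKM with estradiol and 40.7 ± 0.687 FPKM in controls (SD, n = 3 each), a ratio of 1.98. Its log2 change was 0.96 ± 0.10 (SE), with an interval of 0.72 to 1.19. With 1 library left out, it ran from 0.86 to 1.05.

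Beyond ned1, mrpl25 encodes a mitochondrial ribosomal protein, is convergent with ned1 and overlaps its end by 6 bases. mrpl25 was at 59.9, 72.1 and 64.6 FPKM with estradiol, against 71.0, 70.4 and 77.4 FPKM in controls. The groups overlapped, and the log2 change was -0.15, with an interval of -0.35 to 0.04. On the csn71 side, the neighbouring urease gene ure2 was at 0.109, 0.163 and 0.104 FPKM with estradiol, against 0, 0 and 0.0841 FPKM in controls, too low to be fitted. The antisense RNA SPNCRNA.1041 overlaps 96.9% of ure2 and 56 bases of csn71. It had a log2 change of -0.19 and overlapping groups.

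The next gene, SPAC1952.10c, was at 15.6, 16.2 and 14.03 FPKM with estradiol, against 13.1, 13.0 and 11.9 FPKM in controls. The estradiol values were all higher, at a log2 change of 0.25 with an interval of 0.03 to 0.47, and the gene was not called. The only other call in SPAC1952 was gcn5, the histone acetyltransferase of the SAGA coactivator, which starts 17.5 kb from the letters. It was at 31.0, 38.4 and 33.6 FPKM with estradiol, against 44.4, 44.6 and 46.1 FPKM in controls, all lower. The log2 change was -0.39 ± 0.09 (SE), and the call was lost with any 1 library left out, with no filter on low values, with quantile normalization and with no intensity trend. The ribosome biogenesis gene tma23, highest of the stretch by control mean, was at 93.6, 118 and 118 FPKM with estradiol, against 85.5, 95.4 and 98.8 FPKM in controls. Its groups overlapped at a log2 change of 0.23. The 13 tested members of SPAC1952 other than csn71 and ned1 ran from -0.39 (gcn5) to 0.25 (SPAC1952.10c), with a median of -0.01. The meiotic recombination gene rec24, not fitted, was at 0.152, 0.364 and 0.146 FPKM with estradiol, against 0.314, 0.161 and 0.235 FPKM in controls.

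isp3, on the plus strand at chrI:95790-96966, encodes a protein of the spore surface, best known from sporulating cells. It was at 49.7, 40.7 and 33.5 FPKM with estradiol, against 9.87, 11.7 and 14.3 FPKM in controls. The groups were well apart. The means were 41.3 ± 8.08 FPKM with estradiol and 11.96 ± 2.24 FPKM in controls (SD, n = 3 each), a ratio of 3.45. The log2 change was 1.70 ± 0.18 (SE), with an interval of 1.29 to 2.12, the largest among the 50 tested members. With 1 library left out, it ran from 1.56 to 1.84.

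SPNCRNA.606, which is antisense to isp3 and overlaps 736 of its bases, was at 7.84, 4.85 and 5.93 FPKM with estradiol, against 1.67, 2.86 and 1.87 FPKM in controls. The estradiol values were all higher, at a log2 change of 1.20 ± 0.23 (SE). This call was lost with any 1 library left out and with quantile normalization.

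The gene hhy1, which encodes a hydrolase, is transcribed away from isp3 and starts 1.57 kb from the letters. It was at 28.9, 37.3 and 42.0 FPKM with estradiol, against 12.3, 26.5 and 21.9 FPKM in controls. The estradiol values were all higher, by a ratio of 1.78, with library 0 the lowest of each group. The log2 change was 0.85 ± 0.28 (SE), with an interval of 0.20 to 1.504, and hhy1 was not called. With the column number as a block it was called. The antisense SPNCRNA.605, which covers all of hhy1, was at 5.74, 10.02 and 10.9 FPKM with estradiol, against 3.20, 6.14 and 5.88 FPKM in controls. Its groups overlapped at a log2 change of 0.70, not called without the block and called with it.

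Further away, the siderophore transporter gene str3 was at 11.2, 32.5 and 37.3 FPKM with estradiol, against 0.691, 25.7 and 12.3 FPKM in controls. Its log2 change of 1.57 had an SE of 1.00, and library 0 was the lowest of both groups. On the 3′ side of isp3, the flocculin-like gene pfl8 was at 25.6, 22.3 and 34.6 FPKM with estradiol, against 18.1, 17.5 and 26.5 FPKM in controls. The groups overlapped, with a log2 change of 0.39, and pfl8 was called higher only with the block. The pyruvate decarboxylase gene pdc101, whose coding exon holds another match, was at 5527, 4033 and 3799 FPKM with estradiol, against 6022, 5314 and 4833 FPKM in controls. These values overlapped at a log2 change of -0.29. The 6 tested members of SPAC1F8 other than isp3 had a median log2 change of 0.23, with the gluconate transporter gene ght3 the lowest at -0.32. The haem uptake gene shu1 was listed at 0 in 2 libraries of each group and was not fitted.

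**Figure D2:**
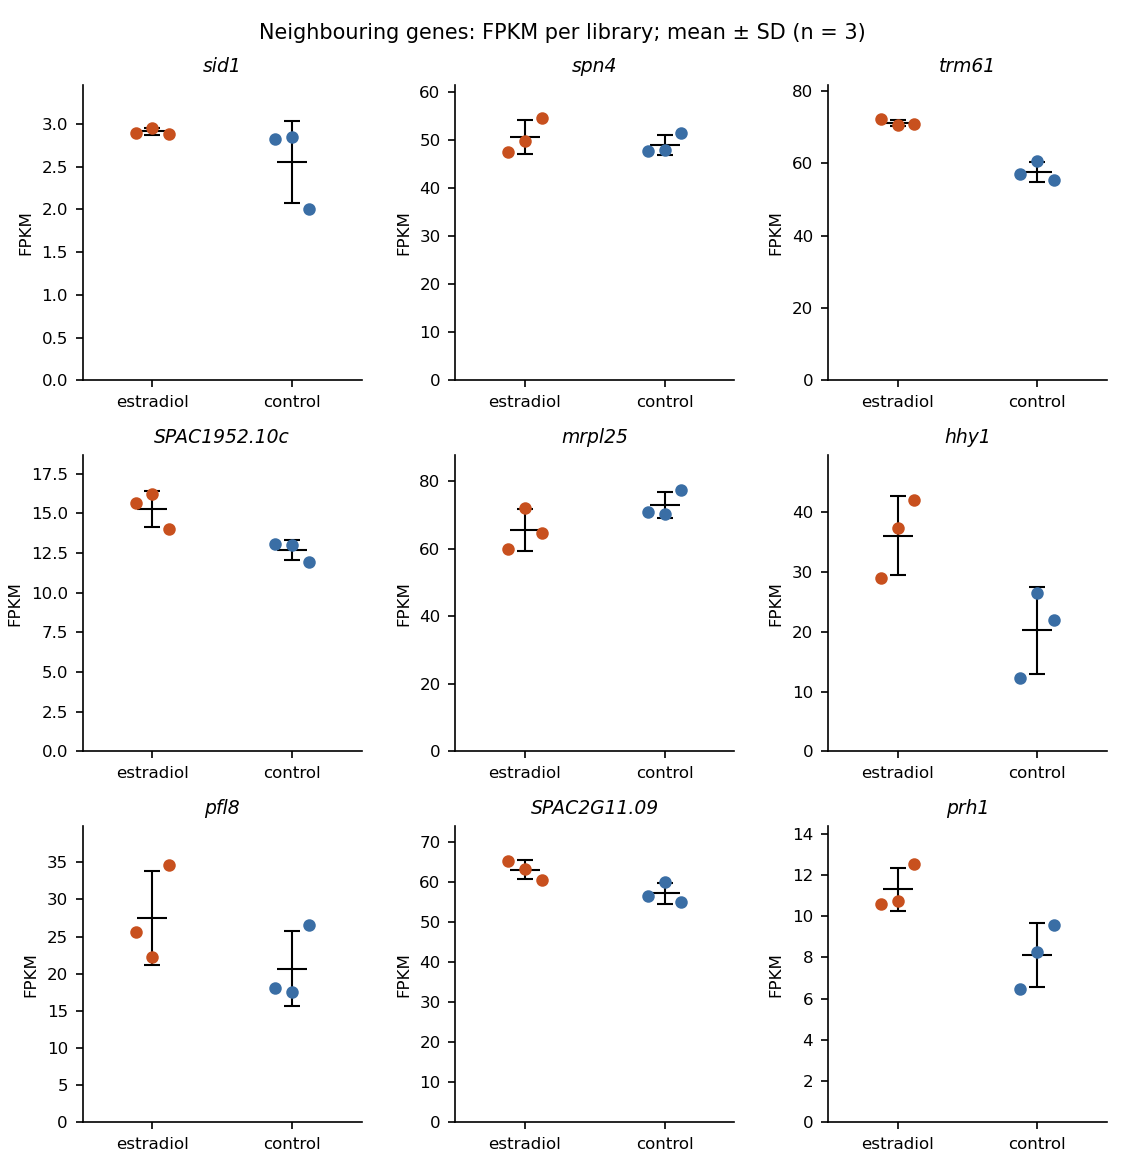
FPKM in each estradiol library (orange) and control library (blue) for 9 genes close to the raised ones, with the mean and SD of 3 libraries per group. The groups are apart for sid1, trm61, SPAC1952.10c, hhy1, SPAC2G11.09 and prh1 and overlap for spn4, mrpl25 and pfl8, and only trm61 was called. Over all tested rows, 17.1% had all estradiol values above all controls. The 9 genes are a selection. Among tested members 2 genes away that are not shown, mzt1, str3, pdc101 and smn1 overlap and rqh1 is apart. The span of sid1 covers all of inp53 on the other strand.

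uba42, on the minus strand at chrI:826313-828113, was named as a raised gene when the stretches were chosen, and was not called. It encodes an enzyme that activates a ubiquitin-like modifier for tRNA thiolation. It was at 7.54, 7.32 and 6.74 FPKM with estradiol, against 6.64, 7.24 and 4.90 FPKM in controls. The groups overlapped. The means were 7.20 ± 0.414 FPKM with estradiol and 6.26 ± 1.21 FPKM in controls (SD, n = 3 each). limma put the log2 change at 0.19 ± 0.16 (SE), with an interval of -0.19 to 0.56.

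The higher row at this place was that of SPNCRNA.689, annotated on the plus strand at chrI:826579-828205, which overlaps 85.2% of uba42 on the other strand and is no member. It was at 66.2, 51.6 and 39.0 FPKM with estradiol, against 15.6, 15.4 and 16.4 FPKM in controls. The lowest estradiol value was more than double the highest control. The means were 52.2 ± 13.6 FPKM with estradiol and 15.8 ± 0.544 FPKM in controls (SD, n = 3 each), a ratio of 3.31. Its log2 change was 1.63 ± 0.18 (SE), and with 1 library left out it ran from 1.45 to 1.82. Because the libraries do not mark strand, whether the reads over the shared bases came from this RNA or from uba42 cannot be told. How the authors' counting divided reads between them is not given in the sources used here.

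On either side of uba42, SPAC2G11.09, which overlaps uba42 by 87 bases, and the RNA helicase gene prh1 were slightly higher and not called. SPAC2G11.09 was at 65.4, 63.3 and 60.6 FPKM with estradiol, against 56.6, 60.2 and 55.1 FPKM in controls. prh1 was at 10.6, 10.8 and 12.5 FPKM with estradiol, against 6.49, 8.24 and 9.59 FPKM in controls. In both genes every estradiol value was above every control. Their log2 changes were 0.14 for SPAC2G11.09 and 0.44 for prh1, the second with an interval of 0.08 to 0.81. The RecQ helicase gene rqh1, after prh1, had a log2 change of 0.16. On the other side, beyond SPAC2G11.09, smn1 of the complex that assembles splicing particles was at 19.96, 14.96 and 14.2 FPKM with estradiol, against 14.4, 13.6 and 13.8 FPKM in controls. The groups overlapped at a log2 change of 0.20.

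The call in SPAC2G11 was alx1, which encodes a BRO1-domain protein and starts 9.05 kb from the letters. It was at 12.6, 13.4 and 15.3 FPKM with estradiol, against 8.79, 9.17 and 9.54 FPKM in controls. The groups did not overlap, at a ratio of 1.502 and a log2 change of 0.54 ± 0.10 (SE). The call was made without estradiol library 0, was lost without any of the other 5 libraries, and was lost with quantile normalization, which gave 0.38. At the far end, tgs1, whose protein methylates RNA caps, was at 43.4, 37.7 and 41.6 FPKM with estradiol, against 49.4, 50.2 and 54.0 FPKM in controls. It was lower in all 3 estradiol libraries and not called, at a log2 change of -0.32, and it was called lower with the block. The protein phosphatase gene ptc3, highest of the stretch by control mean, was at 335, 296 and 321 FPKM with estradiol, against 278, 298 and 319.6 FPKM in controls, which overlapped. The 13 tested members other than uba42 ran from -0.32 (tgs1) to 0.54 (alx1) on the log2 scale, with a median of 0.06.

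**Figure D3:**
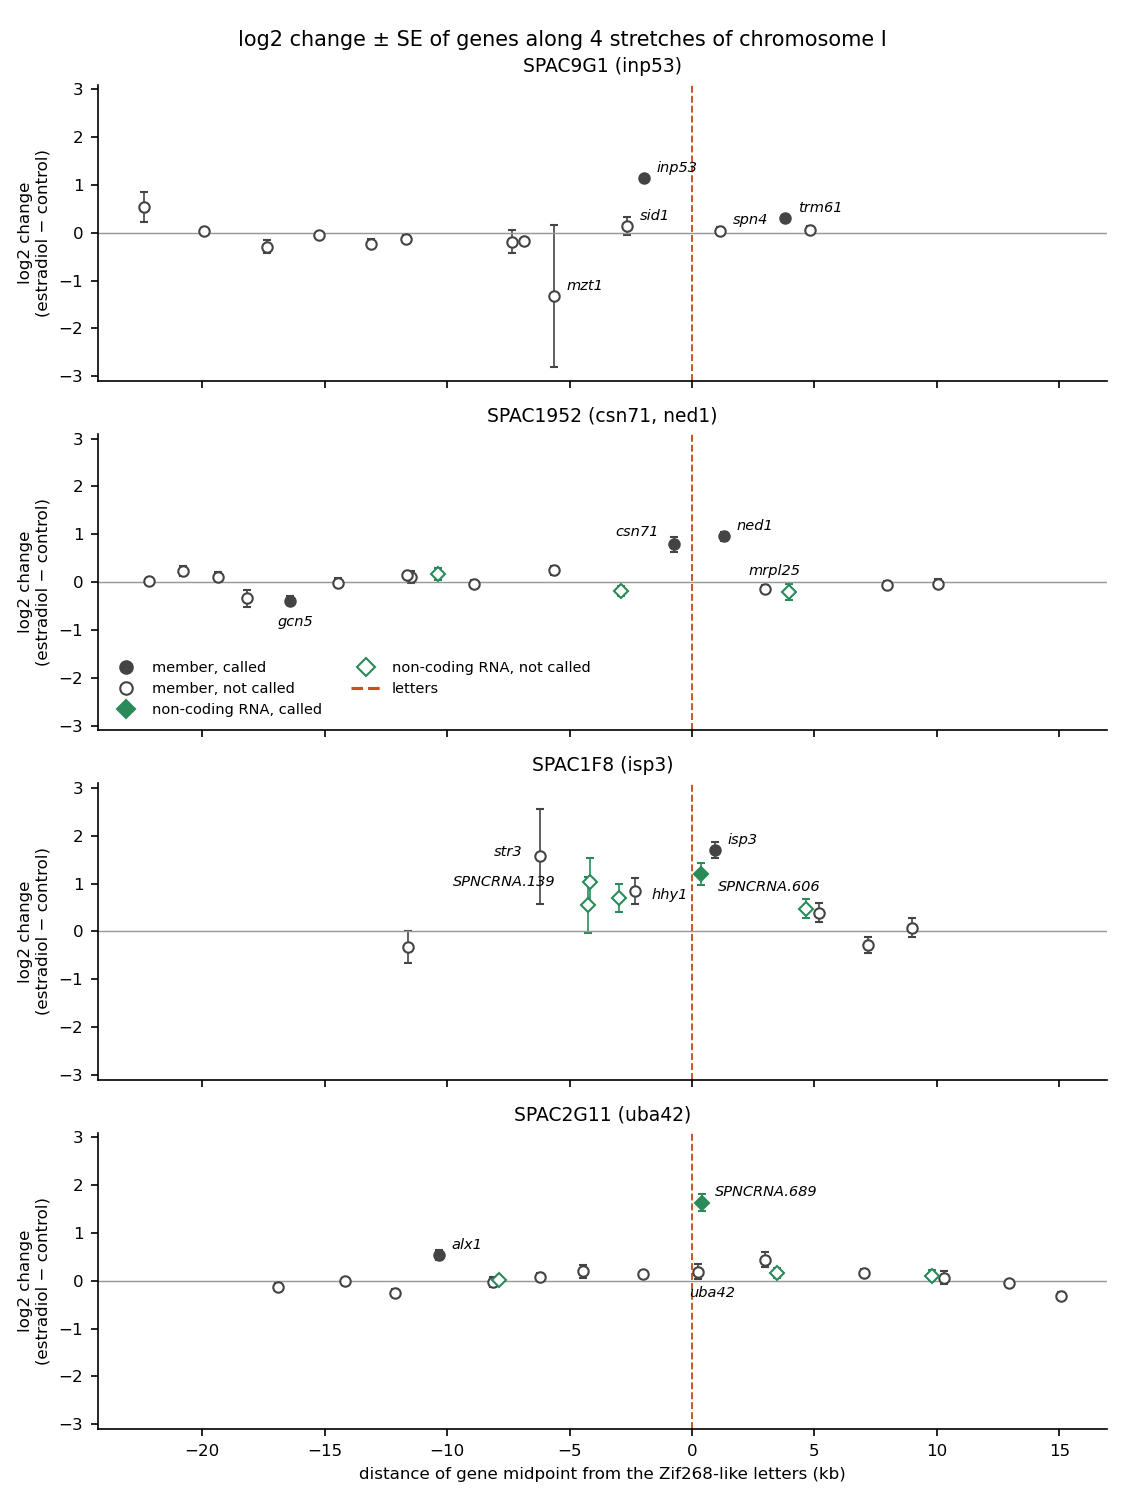
The limma log2 change (estradiol minus control) with its SE against the distance of each gene's midpoint, in kb, from the Zif268-like letters (dashed line), one panel for each stretch. Called genes are filled. The dashed line was placed at the match nearest the start of a picked gene, and other matches in the stretches are not drawn. The highest filled points lie beside the dashed lines: inp53 at 1.14, ned1 at 0.96, isp3 at 1.70, SPNCRNA.606 at 1.20 and SPNCRNA.689 at 1.63. The stretches were chosen for higher genes beside such letters, so this nearness restates the choice and supports nothing. Most other genes lie near 0, except in SPAC1F8. There the open points include str3 at 1.57, SPNCRNA.139 at 1.03 and hhy1 at 0.85, while ght3 and pdc101 lie below 0.

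Read outward along the chromosome, in the order of annotated positions, the members 1 gene away from a picked gene had 7 tested and none called by limma. Their log2 changes ran from -0.15 to 0.85 with a median of 0.15, and 4 of the 7 had all estradiol values above all controls, beside 17.1% of all rows. These 4 were sid1, hhy1, SPAC2G11.09 and prh1. The span of sid1 covers all of inp53, and SPAC2G11.09 shares 87 bases with uba42, so these are not fully separate places. SPAC2G11.09 and prh1 flank uba42, which was not called. Of 7 tested members 2 genes away, 1 was called higher (trm61), and the median was 0.20. Of 7 tested members 3 genes away, none was called, and the median was 0.06. Of 24 tested members further out, 1 was called higher (alx1) and 1 lower (gcn5), and the median was -0.04.

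Without the 5 genes that picked the stretches, 45 tested members gave 2 higher calls, 1 lower call and 42 without a call, with a median log2 change of 0.02. The values are to be read beside the 4.07% and 3.91% called over all rows. A member that was not called may still differ, as the upper ends of the intervals of hhy1 and prh1 show. With the column number as a block, under which 8.21% of all rows were called higher and 8.5% lower, 9 members were called higher and 2 lower. The added ones were tma23, hhy1 and pfl8 above and tgs1 below. With quantile normalization, under which 2.34% of all rows were called higher, 4 members were called higher. In the fit with the block, 2 of the 7 tested members 1 gene away, hhy1 and pfl8, were called higher, both beside isp3.

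Rows inside the stretches that are no members were all non-coding RNAs. Of these, 12 were tested and 2 were called higher, SPNCRNA.606 and SPNCRNA.689, each overlapping a picked gene on the other strand, beside 4.07% of all rows. In SPAC1F8 all 5 such RNAs had log2 changes above 0, with a median of 0.70 and a range of 0.47 to 1.20. Of them 4 were at least 0.5, beside 484 of all 6166 rows. In 2 of these 5 all estradiol values lay above all controls, beside 17.1% of all rows. These are not 5 separate places. SPNCRNA.604, SPNCRNA.139 and SPNCRNA.605 overlap one another, and SPNCRNA.606 and SPNCRNA.607 overlap isp3 and pfl8 on the other strand. Reads of overlapping genes cannot be told apart in these libraries. SPNCRNA.604 was also near the floor, at 0 FPKM in library 0 of both groups. Beyond the ends of the stretches, 15 of 16 coding neighbours were tested. None was called by limma, beside 4.07% higher and 3.91% lower over all rows. With the block 1 was called higher and 2 lower, beside 8.21% and 8.5% of all rows. The largest log2 change among these neighbours was 1.23, that of SPAC11D3.01c, with an interval of 0.43 to 2.03. Its midpoint lay 13.5 kb from the isp3 letters, past the end of SPAC1F8. It was at 62.5, 71.5 and 70.9 FPKM with estradiol, against 39.9, 37.5 and 15.3 FPKM in controls, with the groups apart. It was the neighbour called higher with the block.

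The 5 picked genes differed in level without estradiol. By the mean of the control libraries, uba42 stood at percentile 13.4 of all tested rows, isp3 at 22.5, csn71 at 35.2, inp53 at 48.3 and ned1 at 56.7. Among the estradiol libraries, library 0 was the highest and library 2 the lowest for ned1, isp3, uba42, SPNCRNA.689 and GFP. This order did not hold for inp53 or csn71.

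Genes elsewhere that work with the picked genes were looked at as 5 lists. Of the COP9 signalosome, 5 tested genes other than csn71 had a median log2 change of 0.03 and none was called. None was called among nem1 and nem2, which encode the phosphatase that acts on lipin, or among 2 synaptojanin-type phosphatase genes. Among 3 tested genes of tRNA thiolation, the pathway uba42 is assigned to, ctu1 was called higher by limma (log2 change 0.55 ± 0.10 SE, adjusted p = 0.0272). The others, ctu2 at a log2 change of 0.46 and urm1 at -0.24, had overlapping groups and were not called. The calls in these lists stand beside 4.07% higher and 3.91% lower over all rows. ctu1 was at 49.1, 61.3 and 57.3 FPKM with estradiol, against 34.2, 38.3 and 40.7 FPKM in controls. Its call was lost without control library 0, control library 1, estradiol library 1 or estradiol library 2.

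Of 21 tested genes of spore formation, the process in which isp3 is known, none was called higher by limma and 1 was called lower, beside 4.07% and 3.91% of all rows. This was spo4, which encodes a meiotic kinase, at 17.1, 16.1 and 15.1 FPKM with estradiol, against 20.1, 23.7 and 22.3 FPKM in controls (log2 change -0.43 ± 0.09 SE, limma adjusted p = 0.0358). Its call was lost with any library but estradiol library 0 left out and with no filter on low values. The median log2 change of these 21 genes was 0.06, against 0.02 over all 6166 rows.

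The other 3 exact matches in the genome were also in coding exons, those of rps601, dri1 and SPAC23D3.13c. Those in rps601 and SPAC23D3.13c also lay in exons of antisense non-coding RNAs, SPNCRNA.2078 and SPNCRNA.3966. Neither RNA has FPKM values here. SPAC23D3.13c was at 55.4, 51.7 and 52.9 FPKM with estradiol, against 40.7, 38.8 and 37.9 FPKM in controls, and was called higher at a log2 change of 0.44. rps601, a ribosomal protein gene, was at 1214, 1145 and 1222 FPKM with estradiol, against 1713, 1640 and 1508 FPKM in controls, and was called lower at -0.44. That call was lost with quantile normalization, which gave -0.10. dri1, at -0.16, was not called. The differences of these genes had either sign, and whether the letters bore on them was not tested.

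**Figure D4:**
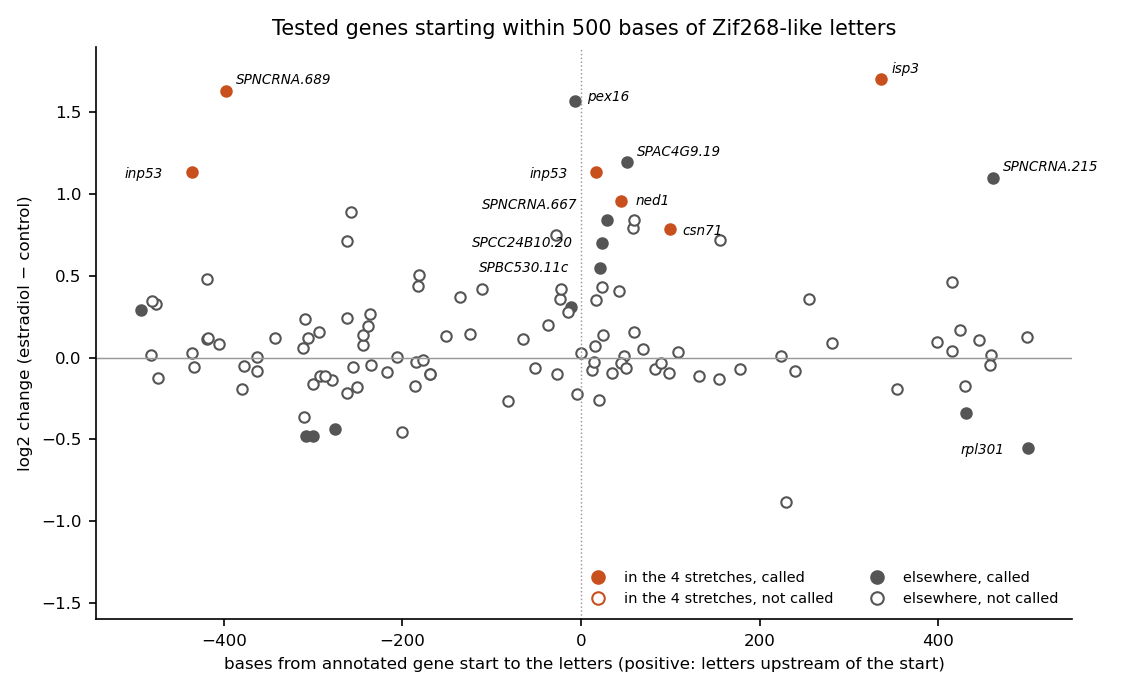
The limma log2 change (estradiol minus control) of tested genes whose annotated start lies within 500 bases of the letters GCGTGGGCG with 0 or 1 mismatch, against the distance from start to letters in bases, with inp53 drawn at both of its matches. Genes of the 4 stretches are orange, genes elsewhere are grey and called genes are filled, and grey points spread around 0 with 8 filled above it and 5 below. The 5 below are ribosomal protein genes, whose calls were all lost with quantile normalization. Above 0, the calls of SPBC530.11c, tea1 and SPCC24B10.20 were also lost with it.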

How the data were processed

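Per the labels' protocols, ribosomal RNA was removed and TruSeq RNA libraries, which do not mark strand, were sequenced paired-end on a MiSeq. The authors deposited FPKM values, 1 per gene and library. CASAVA 1.4, TopHat2 and Cuffdiff are named without settings, per the submitters' processing notes. Build and annotation are not given in the sources used. Columns were matched to groups by the condition number shared with the sample titles, and libraries are named by the table's column numbers, 0 to 2, which cannot be tied to the labels' replicate numbers.

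limma 3.58.1 in R 4.3.3 was fitted to log2(FPKM + 1) with an intensity trend, 2-sided, over the 6166 of 7016 rows with a mean of at least 1 FPKM, with Benjamini-Hochberg adjustment and calls at an adjusted p under 0.05. Log2 changes understate those of low genes. SD is over 3 libraries, and SE and 95% intervals are limma's. On simulated data with 6166 genes, a change of 1.25-fold was recovered for 19.6% of altered genes, 1.5-fold for 61.2%, 2-fold for 87.2% and 4-fold for 96%. Deviations from group means correlated at 0.152, 0.212 and 0.146 between libraries of the same column number, so a fit with the column number as a block was an alternative. The others were pseudocounts, filters, scalings, no trend and each library left out in turn.

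Positions, names and sequence came from RefSeq's ASM294v3 annotation, which matched 6845 identifiers and all 53 members. The authors' build may differ. Named genes were the 5 picked genes, the 2 members on either side of each, every called member, the highest member of each stretch by control mean, overlapping non-coding RNAs and GFP. Others were named after their values were seen. The members and the gene lists were chosen with earlier results of these data known.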

Additional observations from a re-analysis of the deposited data

How the results depend on the processing

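No sign changed among the called members in any alternative run. The calls of inp53, ned1 and isp3 held in all of them. These genes were chosen on the same values, so this is no support. The call of csn71, chosen in the same way, held in 2 of the 6 fits that left out 1 library and was lost with quantile normalization. Members called higher numbered 6 in the limma fit, 4 with quantile normalization, 9 with the replicate block and 3 to 5 with 1 library left out. Members called lower numbered 1. They were 2 with a pseudocount of 0.1, a minimum of 10 FPKM, equal medians or the replicate block, and 0 with no filter, quantile normalization, no trend or any library left out. Of all rows, 251 were called higher and 241 lower. Quantile normalization gave 144 higher and 108 lower, the replicate block gave 506 and 524, and leaving out 1 library gave 42 to 242 and 32 to 206, the fewest without estradiol library 1. Calls in the partner lists numbered 2, against 1 with no filter and 0 to 3 with 1 library left out. Promoter windows holding the letters numbered 0 for the exact motif, 1 for GCGNGGGCG, 49 with at most 1 mismatch and 142 over 1000 bases. The 6 calls near letters elsewhere numbered 4 with quantile normalization, 9 with the block and 1 to 4 with 1 library left out, an alternative chosen after seeing the data. The 8 calls within 500 bases numbered 5, 19 and 1 to 6 in those fits. The causes were not tested. Absolute depth is unknown and counting error cannot be given.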

Other observations

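Genes outside the 4 stretches whose annotated start lay within 500 bases of the letters GCGTGGGCG with at most 1 mismatch gave 8 higher and 5 lower limma calls among 111 tested, with a median log2 change of 0.03. The 5 lower calls were of ribosomal protein genes (rps601, rpl301, rpl501, rpl502 and rps1501), and each was lost with quantile normalization. Among the higher calls, those of SPBC530.11c, tea1 and SPCC24B10.20 were also lost with it. The share of the 111 called higher was 7.21%, beside 4.07% over all rows. Within 100 bases of the start, 36 were tested, 6 were called higher (16.7%) and none lower by limma, with a median of 0.13. The windows were set after results of these data were known, and the shares are a description.

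Among these 6 was pex16, which encodes a protein of peroxisome formation and whose start lies 7 bases from the letters (G9A). It was at 85.8, 61.3 and 61.4 FPKM with estradiol, against 23.2, 21.1 and 23.1 FPKM in controls, and its groups were far apart. The log2 change was 1.57 ± 0.14 (SE, limma adjusted p = 0.00317), and the call was made with any 1 library left out. SPAC4G9.19, which encodes a J-domain protein, was at 33.0, 23.4 and 19.9 FPKM with estradiol, against 9.06, 9.74 and 12.3 FPKM in controls. It was called at a log2 change of 1.20, and the call was lost without control library 0, control library 1 or estradiol library 1. The others were SPNCRNA.667 at a log2 change of 0.84, SPCC24B10.20 at 0.70, SPBC530.11c at 0.55 and ter1, the telomerase RNA, at 0.31. Each of these 4 lost its call in at least 4 of the 6 fits that left out 1 library.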
